A study of Mus musculus with 18 samples.

Results

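The LPS response of wild-type (WT) macrophages was taken as the difference between 3 libraries of bone marrow-derived macrophages (BMDMs) exposed to LPS and 3 libraries of resting BMDMs from WT mice. These are 6 of the 18 libraries of the series, and all genes were considered. The cells came from the marrow of mice of mixed background (129/B6 mix) aged 6 to 7 months per the labels, 3 of each genotype. The study's methods give a younger age for the mice of its mass spectrometry lysates. They were grown for 8 to 9 days in M-CSF at 10 ng/ml after plating at 85000 cells per cm2, with a medium change at day 3. Both groups then received fresh medium, with LPS at 1 ng/ml for the stimulated cells and without it for the resting cells, and were harvested at 16 h. The other 12 libraries came from mice without miR-146a (KO) and from mice that keep the seed of miR-146a but carry an altered 3′ part (3F), treated in the same way. The WT mice carry the intact gene for this microRNA, whose mature sequence in RefSeq lies at chr11:43374435-43374456 of GRCm38.p6, minus strand. It is printed because it sets WT apart from KO and 3F, with the seed at bases 2 to 8 in capitals. miR-146a itself was not analysed here, since the table holds protein-coding genes.
mmu-miR-146a-5p: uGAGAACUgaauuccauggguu

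LPS, a component of the outer membrane of Gram-negative bacteria, is handed by LBP and CD14 to the TLR4 and MD-2 complex. From there MyD88, the IRAK kinases and TRAF6 lead to NF-kB and MAP kinases and to inflammatory cytokines. TRIF leads to TBK1, IRF3 and type I interferon, which acts back on the cells through JAK kinases and STAT factors and raises a broad set of antiviral genes. In macrophages these arms are followed by inhibitors that limit the signal and by a shift of metabolism toward glycolysis. A culture grown in M-CSF and stimulated for 16 h shows the late part of this course, at a low dose.

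Counts of 21734 protein-coding genes were available, of which 11357 had enough counts to be tested. The resting WT libraries held 9199984 to 13556525 counts and the LPS libraries 14398457 to 15338140. CPM below are counts per 1000000 of the TMM-scaled library. Log2 fold changes are LPS against resting from the edgeR quasi-likelihood fit with their standard errors. "Called" means an adjusted p under 0.05 over all genes tested. The macrophage markers summed to 32329 to 48327 CPM at rest and 46089 to 60573 CPM with LPS, and none of the 10 was at 0 counts. Most of this sum was Lyz2, with a mean of 39497.5 CPM over the 6 WT libraries. Markers of neutrophils summed to 51.5 to 67.3 and 65.9 to 124.9 CPM, and Csf3r was their largest member. Those of dendritic cells summed to at most 2.93 CPM, of T and NK cells to at most 8.32 CPM with Cd3e, Cd3g and Cd8b1 at 0 counts. Markers of mast cells and basophils reached at most 0.220 CPM with 6 of 8 at 0. B cell markers summed to 37.1 to 51.2 CPM at rest and 40.5 to 44.5 CPM with LPS. Most of this was Blnk, with a mean of 40.6 CPM over the 6 WT libraries. Erythroid markers summed to at most 0.193 CPM and osteoclast markers to 247 to 281 and 283 to 351 CPM. Stromal markers summed to 0.854 to 4.16 CPM at rest and 4.05 to 6.01 CPM with LPS, and the part of these cells in the results was not tested. Lower or higher RNA in a culture can reflect fewer or more cells of a type as well as less or more RNA per cell, which bulk libraries cannot tell apart.

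LPS changed 3240 genes. Of all genes tested, 16.3% (1847) were called higher and 12.3% (1393) lower. The rises were the larger changes by fitted fold. At least a 2-fold difference was reached by 807 genes called higher and 524 called lower, a 4-fold difference by 394 and 101, an 8-fold difference by 220 and 28, and a 16-fold difference by 124 and 11. The 220 genes at 8-fold or more were 1.94% of those tested. These classes use the fitted fold, also for 73 genes called higher and 19 called lower with few counts in 1 group. For those only a bound is known, as given below, and it can be under 8-fold. The 3 LPS libraries lay above the 3 resting libraries in 1816 of the 1847 genes called higher and below them in 1366 of the 1393 called lower. Over all genes tested, the libraries did not overlap in 25.9% with LPS higher and in 21.6% with LPS lower. Genes called higher took 19.7%, 20.2% and 20.8% of the counts of the resting libraries and 36.4%, 34.4% and 38.8% of those of the LPS libraries. Genes called lower went from 14.2%, 15.1% and 14.3% to 7.46%, 7.96% and 6.88%. The first principal component of the 6 libraries held 81.9% of the variance and placed the resting replicates at −40.4, −43.4 and −34.2 and the LPS replicates at 40.8, 26.4 and 50.8. The direction of the calls depended on the scaling and on the libraries in the fit. With TMM 57.0% of them were higher, at a median log2 fold change of 0.02 over all genes tested. The share was 52.9% with RLE scaling, 39.3% with upper-quartile scaling (median −0.12) and 26.7% with total counts (median −0.24). With TMM and the WT libraries alone it was 49.9% (median −0.02). The number called lower fell to 926 without LPS replicate 1 and to 884 without LPS replicate 3.

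**Figure D1:**
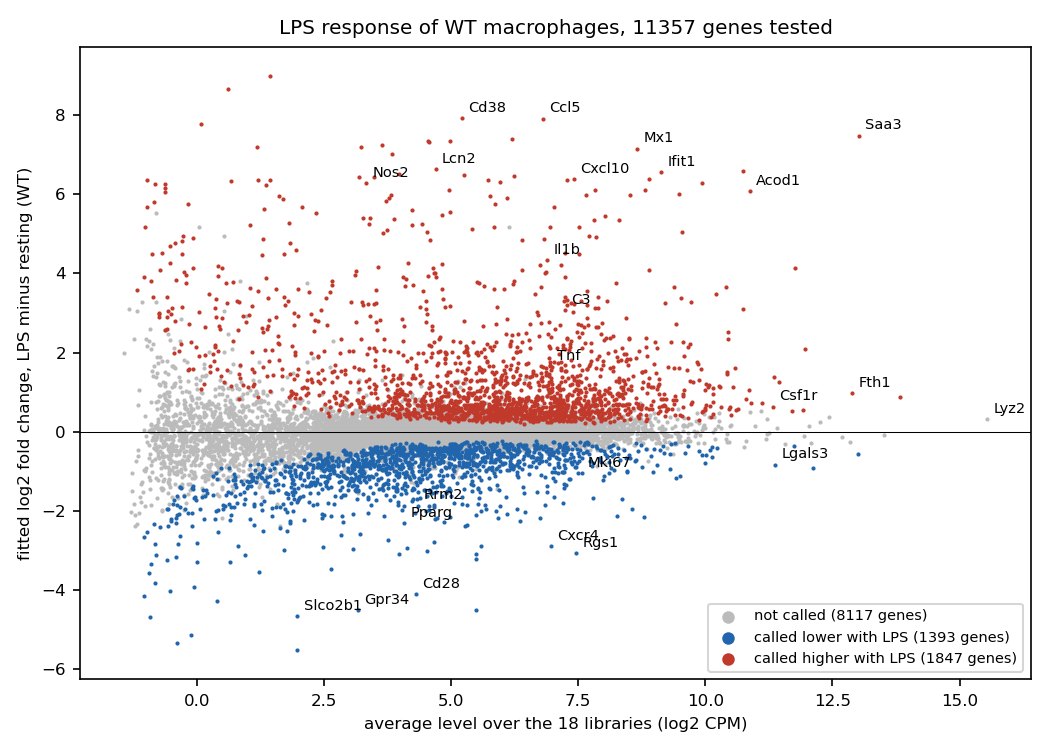
Log2 fold change of each of the 11357 genes tested in WT BMDMs (LPS against resting, 3 libraries each, vertical axis) against its average log2 CPM over the 18 libraries of the fit (horizontal axis), with called genes coloured. The 1847 genes called higher reach larger fold changes than the 1393 called lower, as in the fold classes above.

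The LPS replicates responded to different extents. Replicate 2 was the lowest of the 3 LPS libraries for 1190 of the genes called higher (64.4%) and for 168 of the 220 at 8-fold or more (76.4%). Replicate 3 was the highest for 1110 (60.1%) and for 180 of the 220 (81.8%). Among tested genes that were not called, each of the 3 was the lowest for 32.7% to 34.5%. Many genes of the interferon response had a wide spread in their LPS values, as the CPM below show. The p-values measure the spread between these cultures of 3 mice of each genotype. This spread was estimated over all 18 libraries, not over the WT libraries alone. WT calls numbered 3774 without resting KO replicate 3 and 3995 without resting 3F replicate 3, in place of 3240. With 3 libraries against 3 an exact permutation test cannot go below p = 0.1, so that single genes were tested by the fit across all genes.

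Among called genes with an average log2 CPM of at least 1, those with the largest rises on the log2 scale included Saa3, Ccl5 and Cd38. Saa3 encodes a serum amyloid A protein that macrophages secrete in the acute-phase response, and lies at chr7:46712000-46715700 of GRCm38. It stood at 43.6, 18.4 and 118 CPM at rest and 10853, 7511 and 13797 CPM with LPS (log2 fold change 7.48 ± 0.92, adjusted p = 2.2e-05). Ccl5, a chemokine for T cells and monocytes, stood at 0.591, 0.753 and 1.35 CPM at rest and 205, 146 and 279 CPM with LPS (log2 fold change 7.91 ± 1.03, adjusted p = 3.68e-05). Cd38, an enzyme that breaks down NAD, had counts in resting replicate 1 alone and stood at 0.46, 0 and 0 CPM at rest and 43.5, 21.7 and 72.6 CPM with LPS (log2 fold change 7.93 ± 0.63, adjusted p = 2.7e-07). Without that replicate no resting count was left as the base of a fold. In each of the 3 genes every LPS library lay above every resting library. Rasgrp1, an exchange factor for Ras, rose from 0.176 ± 0.183 to 26.8 ± 9.55 CPM (log2 fold change 7.34 ± 0.81, adjusted p = 7.4e-06). Slfn1, of the Schlafen family, rose from 0.201 ± 0.166 to 31.3 ± 30.8 CPM (log2 fold change 7.36 ± 1.78, adjusted p = 0.00572). Ifi205, Ifi206 and Ifi213 belong to the interferon-inducible HIN-200 family. Its members are near copies of each other, so that reads that match more than 1 of them may be lost or misplaced. Their log2 fold changes were 7.39 ± 1.31, 7.03 ± 1.48 and 7.32 ± 1.55.

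A further 73 genes called higher had at most 3 counts in each resting library. Only a lower bound of the rise in the group mean can be given for them. The bound sets the mean CPM of the LPS libraries against 3 counts per library and leaves out the spread among the LPS libraries. The cytokine subunit gene Il12b had no count at rest and 2.09, 9.69 and 7.77 CPM with LPS, at least 27.4-fold higher. Adora2a, a receptor of adenosine, stood at 0.197, 0.0753 and 0.0967 CPM at rest and 10.1, 12.4 and 13.2 CPM with LPS and was at least 50.1-fold higher. Cfb, complement factor B, stood at 0, 0 and 0.29 CPM at rest and 10.9, 10.6 and 16.9 CPM with LPS and was at least 53.9-fold higher. For Lipg, an endothelial-type lipase, the bound was 21.7-fold. The largest bound of all, 69.8-fold, was that of the HIN-200 gene Ifi208, which was named after its value was seen. Its LPS libraries were far apart, at 12.1, 4.57 and 33.1 CPM.

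Of the genes called lower, 19 had at most 3 counts in each LPS library. Fosb, a member of the AP-1 family of transcription factors, went from 8.28, 6.93 and 5.51 CPM at rest to 0.0698, 0.136 and 0.22 CPM, at least 32.7-fold lower. Gpr34, a receptor for lysophosphatidylserine, went from 26.9, 13.9 and 16.1 CPM to 1.05, 0.819 and 0.586 CPM (log2 fold change −4.52 ± 0.66, adjusted p = 0.000115). Nptx1, a pentraxin, went from 94.5, 151 and 131 CPM to 4.47, 8.74 and 3.37 CPM (log2 fold change −4.50 ± 0.42, adjusted p = 1.49e-06). Resting and LPS libraries were separate in all 3. Slco2b1, an organic anion transporter, fell by 4.67 on the log2 scale, Cd28, best known as a costimulatory receptor of T cells, by 4.11, and Abca6, of the ABC transporter family, by 3.55. St6gal1, a sialyltransferase, fell from 94.5 ± 8.75 to 10.1 ± 1.85 CPM (log2 fold change −3.23 ± 0.28, adjusted p = 5.93e-07). Lama3, a laminin chain, Rasgrp3, an exchange factor for Ras, Rgs1, an inhibitor of G protein signalling, and Reps2, an endocytic adaptor, fell by 3.02 to 3.09 on the log2 scale. At rest Cd28 stood at 43.7, 56 and 40.9 CPM and Rgs1 at 408, 308 and 342 CPM.

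Among called genes whose resting and LPS libraries did not overlap, the largest gains in CPM per kb of exon were those of the ferritin heavy chain Fth1, Saa3, the actin Actb, the C-type lectin Clec4e, the itaconate-producing enzyme Acod1 and the peroxiredoxin Prdx5. Fth1, which stores iron, rose from 5031 ± 791 to 9910 ± 268 CPM (log2 fold change 0.98 ± 0.18, adjusted p = 0.000627), and Actb rose from 9474 ± 1435 to 17403 ± 2076 CPM (log2 fold change 0.88 ± 0.23, adjusted p = 0.00833). Prdx5 rose from 319 ± 75.3 to 1837 ± 366 CPM (log2 fold change 2.52 ± 0.34, adjusted p = 4.75e-05). The largest losses among such genes were of Lgals3 (galectin-3), the glycoprotein Gpnmb, the protease Ctsd, the filament protein Vim, the urokinase Plau and the annexin Anxa1. Lgals3 fell from 3739 ± 239 to 2094 ± 142 CPM (log2 fold change −0.84 ± 0.15, adjusted p = 0.000694). Plau fell from 874 ± 77.3 to 197 ± 13.9 CPM (log2 fold change −2.15 ± 0.23, adjusted p = 5.07e-06). Anxa1 fell by 0.59 on the log2 scale. The falls of Ctsd (−0.42) and Vim (−0.35) were near the threshold and were not called without any single one of the 6 WT libraries (adjusted p 0.0633 to 0.142 and 0.0513 to 0.128). That of Gpnmb (−0.57) was not called without LPS replicate 2 (adjusted p 0.0641). Lyz2, the lysozyme of myeloid cells and the most abundant gene per kb in both states, stood at 42604, 26461 and 36405 CPM at rest and 45797, 36686 and 49032 CPM with LPS and was not called (log2 fold change 0.32 ± 0.21, adjusted p = 0.276).

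The 36 gene lists held 805 genes, and 29 of the lists had a larger share of members called higher than the 16.3% of all genes. The largest shares were in the lists of interferon-stimulated antiviral genes, of MHC class I and of glycolysis and hypoxia genes, while the largest shares called lower were in mitosis and in DNA replication, where no member was called higher. Some genes stand in more than 1 list. Lists and members were chosen by name and function with earlier results of these data known. The 29 of 36 therefore describes the lists and is not a test. With total counts as the scaling, 15 of the glycolysis members were called higher in place of 19, and 26 mitosis and 27 DNA replication members were called lower in place of 18 and 21.

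**Figure D2:**
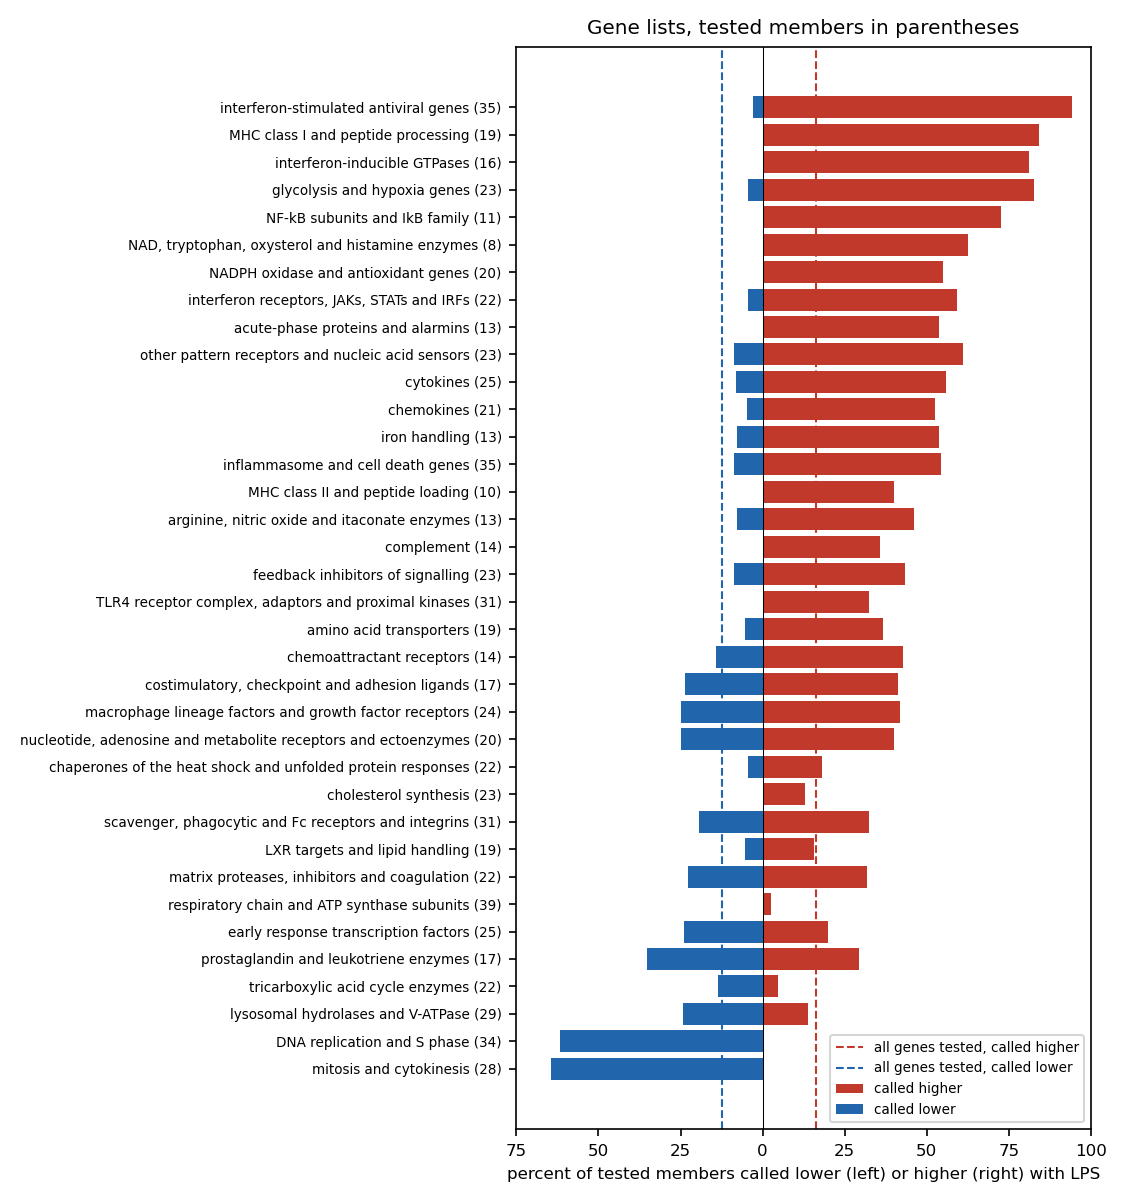
Percent of the tested members of each of 36 gene lists that were called higher or lower in WT BMDMs after LPS, with dashed lines at the percent over all 11357 genes tested. Interferon-stimulated antiviral genes stand at 94.3% higher, MHC class I at 84.2% and glycolysis at 82.6%, and mitosis and DNA replication at 64.3% and 61.8% lower.

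The TLR4 receptor complex, its adaptors and proximal kinases rose in part. Of 31 members tested, 10 were called higher and 0 lower, with a median log2 fold change of 0.31, and with total counts 8 were called higher and 2 lower. The receptor gene itself stood at 247, 202 and 213 CPM at rest and 210, 181 and 226 CPM with LPS and was not called (log2 fold change −0.10 ± 0.12, adjusted p = 0.581), whereas Cd14, the co-receptor that passes LPS on, stood at 691, 654 and 929 CPM at rest and 1818, 1478 and 1653 CPM with LPS (log2 fold change 1.12 ± 0.16, adjusted p = 0.000114). Irak3 encodes IRAK-M, a kinase-like protein that restrains the pathway. It had the largest rise of the list, from 23.7, 32.3 and 35.3 CPM to 207, 195 and 186 CPM (log2 fold change 2.69 ± 0.20, adjusted p = 1.31e-07), with little difference among the LPS libraries. Ikbke, the IKK-related kinase of the interferon arm, rose from 94.7 ± 11.3 to 326 ± 55 CPM (log2 fold change 1.79 ± 0.17, adjusted p = 1.43e-06). Irak1 and Traf6, signal carriers downstream of MyD88 and known targets of miR-146a, were not called. Irak1 stood at 46, 67.5 and 66.2 CPM at rest and 62.8, 51.5 and 46.8 CPM with LPS (log2 fold change −0.16 ± 0.18, adjusted p = 0.57). Traf6 stood at 40.3, 60.4 and 52.3 CPM at rest and 51.1, 44.9 and 40.2 CPM with LPS (log2 fold change −0.17 ± 0.16, adjusted p = 0.474). The groups overlapped in both. The other members called higher were Myd88, Peli1, Rnf31, Irak2, Tbk1, Ly96 and Ikbkg.

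Other pattern receptors and nucleic acid sensors were called higher in 14 of 23 and lower in 2, at a median of 0.96. Clec4e, or Mincle, a receptor for glycolipids of mycobacteria and for damaged cells, was the most abundant of them and stood at 352, 237 and 373 CPM at rest and 5323, 5649 and 6025 CPM with LPS (log2 fold change 4.14 ± 0.33, adjusted p = 2.95e-07). Zbp1, a sensor of Z-form nucleic acid, rose from 0.879 ± 0.366 to 71.3 ± 32.9 CPM (log2 fold change 6.36 ± 1.16, adjusted p = 0.000712). The RNA sensors Ddx58 (RIG-I), Ifih1 (MDA5) and Dhx58, the receptors Tlr1, Tlr2, Tlr3 and Tlr6, and the peptidoglycan sensors Nod1 and Nod2 were also called higher. The 2 members called lower were Tlr5, the flagellin receptor, and Tmem173, the DNA pathway adaptor STING, at −2.17 ± 0.71 and −0.63 ± 0.23. Tlr5 was near its floor of detection with 0.489, 0.0682 and 0 CPM after LPS, and its call was lost without resting replicate 1, resting replicate 3, LPS replicate 2 or LPS replicate 3 (log2 fold change −1.63 to −4.31 over the 6 fits without 1 WT library). The call of Tmem173 was lost without resting replicate 2, resting replicate 3, LPS replicate 1, LPS replicate 2 or LPS replicate 3 (adjusted p 0.0588 to 0.284).

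NF-kB subunits and the IkB family were higher in 8 of 11 members and lower in 0, with a median of 0.98. Nfkbia encodes IkB-alpha, the inhibitor that NF-kB itself induces. It stood at 160.1, 127 and 188 CPM at rest and 416, 359 and 377 CPM with LPS (log2 fold change 1.28 ± 0.19, adjusted p = 0.00014). Nfkbie, a further IkB, rose from 22.3 ± 3.83 to 76.8 ± 9.17 CPM (log2 fold change 1.79 ± 0.18, adjusted p = 3.11e-06). Bcl3, an IkB protein of the nucleus, rose from 4.24 ± 2.4 to 12.1 ± 2.8 CPM (log2 fold change 1.55 ± 0.34, adjusted p = 0.00272). Rela, Rel and Nfkbid were not called. The feedback inhibitors of signalling did not move together: 10 of 23 were called higher and 2 lower, at a median of −0.03. Tnfaip3, the ubiquitin-editing enzyme A20, stood at 74.6, 70.3 and 93.4 CPM at rest and 191, 156 and 154 CPM with LPS (log2 fold change 1.07 ± 0.22, adjusted p = 0.00183). The cytokine signalling inhibitor Socs3 stood at 9.33, 9.79 and 13.8 CPM at rest and 176, 88 and 153 CPM with LPS (log2 fold change 3.67 ± 0.35, adjusted p = 1.55e-06). Socs1 stood at 0.92, 0.452 and 0.774 CPM at rest and 11, 4.98 and 18.2 CPM with LPS (log2 fold change 3.96 ± 0.63, adjusted p = 0.000236). All 3 were separate between the groups. The members called lower were the phosphatase gene Dusp5 (−1.70 ± 0.45), and the mRNA decay factor Zfp36l2 (−0.60 ± 0.17). The first call was lost without resting replicate 3 or LPS replicate 3 (adjusted p 0.0503 to 0.0531) and the second without resting replicate 2 or LPS replicate 3 (adjusted p 0.0748 to 0.125). The count called lower in this list was 5 without resting replicate 1, 1 without resting replicate 2, 0 without LPS replicate 3 and 8 when libraries were scaled by total counts.

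Matches to an NF-kB motif, GGANTTTCC on either strand, were looked for in RefSeq promoters of 300 bases, 250 before and 50 after the start of the gene. The windows below show it in promoters of inhibitor genes and of Acod1 and Cxcl3, which rose, and of Il6, which was not called. Each is printed 5′ to 3′ on the strand of its gene, with GRCm38.p6 coordinates, and the match is in capitals. GGAAATTCC holds the motif on the opposite strand.
Nfkbia, chr12:55492658-55492686, minus strand: tgactggcttGGAAATTCCccgcgcctga
Nfkbia, chr12:55492807-55492835, minus strand: ctggtcgggaGGACTTTCCagccactcag
Tnfaip3, chr10:19015416-19015444, minus strand: tcacgtgactGGAATTTCCatcggaaatc
Acod1, chr14:103046917-103046945, plus strand: ttgaaatggtGGAAATTCCatggttgaaa
Cxcl3, chr5:90786019-90786047, plus strand: agctgcggggGGAATTTCCccagcccggg
Il6, chr5:30013061-30013089, plus strand: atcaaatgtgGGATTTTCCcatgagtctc

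Cytokine genes diverged at 16 h. Of 25 tested, 14 were called higher and 2 lower, with a median of 1.73. The median was 1.39 when floor genes took their bounds. Tnf stood at 37.4, 45.3 and 60.2 CPM at rest and 159, 143 and 148 CPM with LPS (log2 fold change 1.66 ± 0.21, adjusted p = 3.05e-05). Il1b, the precursor of interleukin-1 beta, stood at 2.17, 1.51 and 11.3 CPM at rest and 112, 53.4 and 122 CPM with LPS (log2 fold change 4.33 ± 0.77, adjusted p = 0.000593). Il1a stood at 0.328, 0.0753 and 0.29 CPM at rest and 12, 9.28 and 20.1 CPM with LPS (log2 fold change 5.84 ± 0.57, adjusted p = 2.16e-06). The LPS libraries lay above the resting libraries in all 3 genes, by a smaller factor in Tnf than in the interleukin-1 genes. Il6 was hardly detected, with 0.0657, 0.151 and 0 CPM at rest and 0.419, 0.273 and 0.733 CPM with LPS, and was not called (adjusted p = 0.0865). Il10, an anti-inflammatory cytokine, stood at 1.97, 1.81 and 2.32 CPM at rest and 6.49, 2.66 and 15.8 CPM with LPS (log2 fold change 2.03 ± 0.60, adjusted p = 0.019). Its call was lost without resting replicate 1, resting replicate 2 or LPS replicate 3 (adjusted p 0.057 to 0.17). The log2 fold change of Il10 was 1.18 without LPS replicate 3. The other members called higher were Ifnb1, Tnfsf10, Il27, Inhba, Tnfsf15, Il1rn, Il18bp, Ebi3 and Il18. Ifnb1, the gene of interferon beta, had no count at rest and 0.698, 0.341 and 0.806 CPM with LPS, at least 2.59-fold higher. It was not called without resting replicate 1, resting replicate 2 or LPS replicate 3. Il1rn, which encodes the antagonist of the interleukin-1 receptor, went from 49.4 ± 18.3 to 359.8 ± 164 CPM (log2 fold change 2.87 ± 0.42, adjusted p = 0.00011). The growth factor Vegfa and oncostatin M gene Osm were called lower, from 69.8 ± 6.19 to 24.1 ± 6.74 CPM (log2 fold change −1.53 ± 0.27, adjusted p = 0.000506) and 11.6 ± 0.562 to 4.4 ± 0.393 CPM (log2 fold change −1.40 ± 0.27, adjusted p = 0.0013). Summed over the list, cytokine CPM were 7937, 8865 and 10087 at rest and 7607, 7399.5 and 9220.5 with LPS. Most of this sum was Spp1 (osteopontin), which stood at 7682, 8585 and 9746 CPM at rest and 6689, 6829 and 8111 CPM with LPS and was not called. Il12a, Il23a, Il33, Lif, Csf2, Csf3, Lta and Ltb had too few counts to be tested.

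Chemokines were higher in 11 of 21 and lower in 1, at a median of 1.59, or 1.51 with floor genes at their bounds. Cxcl10, a chemokine for activated T cells, stood at 1.12, 2.33 and 5.61 CPM at rest and 155, 69.7 and 503 CPM with LPS (log2 fold change 6.39 ± 1.04, adjusted p = 0.000281). LPS replicate 2 was the lowest LPS library. By their means, Cxcl3, a neutrophil chemokine, was at least 13.6-fold higher, the monocyte chemokine Ccl8 at least 37.3-fold, and Cxcl11, a further ligand of CXCR3, at least 16-fold. With LPS, Ccl8 stood at 6.42, 2.39 and 17.8 CPM and Cxcl11 at 6.70, 2.66 and 2.05 CPM. The remaining members called higher were Ccl5, Ccl12, Cxcl9, Ccl24, Cxcl16, Ccl4 and Ccl9. Ccl2, Ccl3, Cxcl1 and Cxcl2 were not called, and their groups overlapped. Cxcl1 stood at 5.71, 3.24 and 10.6 CPM at rest and 7.05, 5.32 and 5.06 CPM with LPS. Ccl2 stood at 94.3, 88.9 and 80.1 CPM at rest and 83.7, 61.5 and 162 CPM with LPS. Cxcl14 was called lower (log2 fold change −0.93 ± 0.31, adjusted p = 0.0341), a call lost without resting replicate 3, LPS replicate 1, LPS replicate 2 or LPS replicate 3 (adjusted p 0.0666 to 0.213).

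Among chemoattractant receptors, 6 of 14 were called higher and 2 lower, at a median of 0.54. The receptors for formylated peptides of bacteria, Fpr1 and Fpr2, had the largest rises. Fpr2 stood at 1.25, 1.2 and 5.03 CPM at rest and 225, 142 and 219 CPM with LPS (log2 fold change 6.37 ± 0.62, adjusted p = 2.01e-06). Fpr1 stood at 1.45, 0.753 and 2.32 CPM at rest and 69.9, 63.4 and 107 CPM with LPS (log2 fold change 5.77 ± 0.64, adjusted p = 8.44e-06). Cxcr4, the receptor of CXCL12, went the other way and stood at 249.6, 225 and 243 CPM at rest and 41.4, 24.6 and 31.1 CPM with LPS (log2 fold change −2.89 ± 0.27, adjusted p = 1.43e-06). Cxcr3 fell from 7.02 ± 1.21 to 2.19 ± 0.57 CPM (log2 fold change −1.68 ± 0.26, adjusted p = 0.000178). Among the others called higher were Cmklr1, Ccr3 and Ptafr, and the number called higher in the list was 3 without resting replicate 1.

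**Figure D3:**
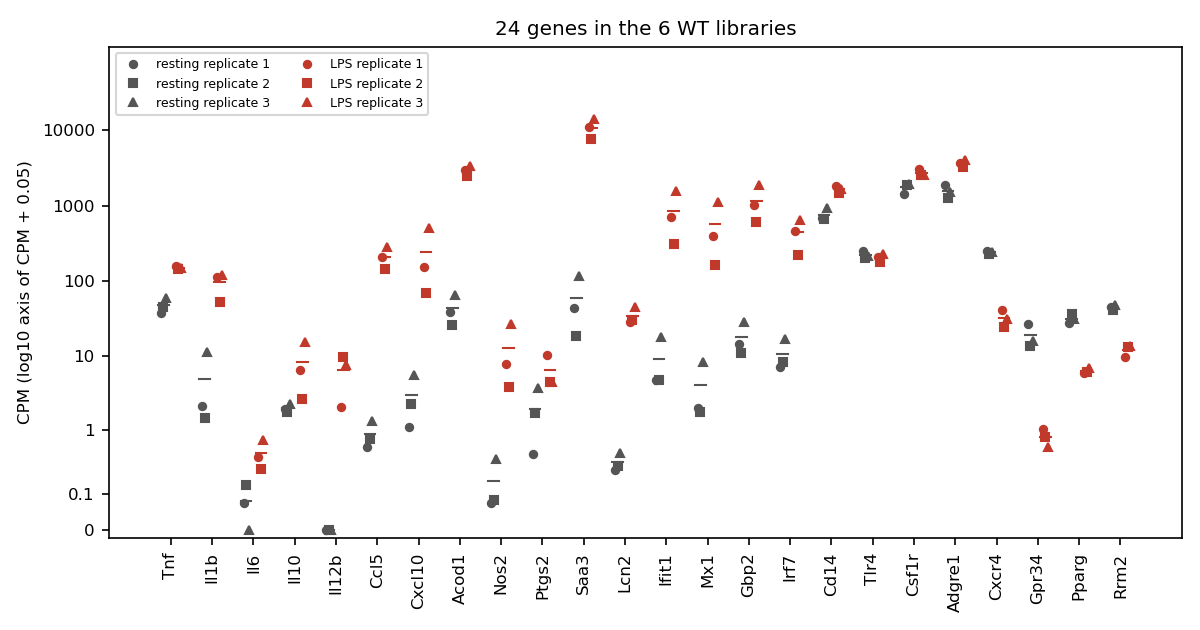
CPM of 24 genes in the 3 resting and 3 LPS WT libraries (log10 vertical axis, 1 point per library), among them Saa3, Cxcl10, Tnf and Cxcr4. The groups are separate in genes such as Saa3 and Cxcr4, and the LPS points of Cxcl10 are spread from 69.7 to 503 CPM.

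Interferon-stimulated antiviral genes had the largest share of calls higher among the 36 lists. Of 35 tested, 33 were called higher, 1 lower and 1 not, at a median log2 fold change of 3.60 against 0.02 over all genes. Ifit1, which binds viral RNA, stood at 4.8, 4.89 and 18.1 CPM at rest and 714, 309.9 and 1549 CPM with LPS (log2 fold change 6.56 ± 1.11, adjusted p = 0.000406). Mx1, a GTPase that restricts influenza virus, stood at 2.04, 1.81 and 8.51 CPM at rest and 401, 165 and 1127 CPM with LPS (log2 fold change 7.15 ± 1.40, adjusted p = 0.00127). Ifit2, of the same family as Ifit1 and the most abundant of the list, stood at 25.3, 21.8 and 51.8 CPM at rest and 2235, 876 and 6351 CPM with LPS (log2 fold change 6.59 ± 1.22, adjusted p = 0.000822). In all 3, LPS replicate 3 was the highest library and LPS replicate 2 the lowest of the LPS group, and both were far above the resting libraries. Isg15, Rsad2, Oas1a, Oas2, Oas3, Oasl1, Oasl2, Usp18 and Bst2 were among the other members called higher. Trim25 was not called (log2 fold change 0.60 ± 0.22, adjusted p = 0.0534). Summed over the list, CPM were 1096, 1217 and 1467 at rest and 12984, 6719 and 25399.6 with LPS, a 3.78-fold range among the LPS libraries.

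The interferon-inducible GTPases, which act on the vacuoles of intracellular pathogens, were called higher in 13 of 16 and lower in 0, at a median of 4.58, or 4.34 with floor genes at their bounds. Iigp1 stood at 0.394, 0.226 and 1.84 CPM at rest and 36.9, 13.2 and 151 CPM with LPS (log2 fold change 6.48 ± 1.27, adjusted p = 0.00132). Tgtp2 stood at 0.131, 0.0753 and 0.58 CPM at rest and 13.2, 4.64 and 48.6 CPM with LPS (log2 fold change 6.5 ± 1.43, adjusted p = 0.00294). Its reads that also match the near copy Tgtp1 may be lost or misplaced. Gbp2, the most abundant member, was named after its values were seen and stood at 14.8, 11.2 and 28.3 CPM at rest and 1006, 600.5 and 1852 CPM with LPS (log2 fold change 6.00 ± 1.02, adjusted p = 0.000402). Their sums were 91.3, 100.4 and 169 CPM at rest and 2614, 1406 and 4853 CPM with LPS, a 3.45-fold range within the LPS group. Replicates 3 and 2 were again the highest and the lowest LPS libraries.

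Interferon receptors, JAKs, STATs and IRFs were called higher in 13 of 22 and lower in 1, at a median of 0.56. Irf7, the factor that amplifies type I interferon, stood at 7.16, 8.36 and 17.1 CPM at rest and 454, 221 and 653 CPM with LPS (log2 fold change 5.36 ± 0.96, adjusted p = 0.00061). Others called higher were Stat2, Irf1, Jak2, Irf9, Ifnar1, Stat3, Ifngr2, Ifnar2, Irf2, Tyk2 and Stat5a. Irf3, the factor that TLR4 activates through TRIF by phosphorylation, was not called (log2 fold change 0.07 ± 0.10, adjusted p = 0.627). Irf4 was called lower at −2.07 ± 0.57, a call lost without LPS replicate 1 or LPS replicate 3 (log2 fold change −1.72 to −3.00 over the 6 fits without 1 WT library).

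**Figure D4:**
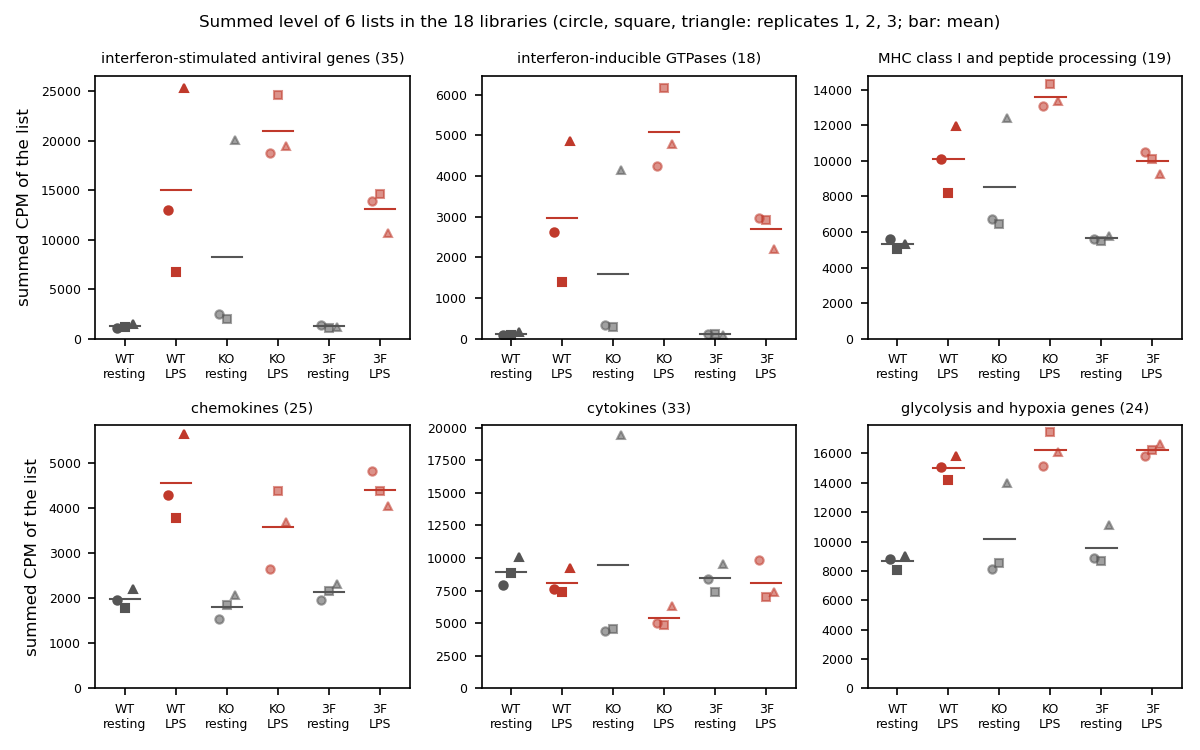
Summed CPM of 6 gene lists in each of the 18 libraries, by genotype and treatment (vertical axis in CPM, 1 point per library). In WT the interferon-stimulated list lies between 1097 and 1467 CPM at rest and between 6719 and 25400 CPM with LPS, and 1 resting KO library stands at 20146 CPM.

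The core of the interferon-stimulated response element, GAAANNGAA on either strand, was present in the promoters of 16 of the 26 antiviral genes and 10 of the 11 GTPases with a RefSeq promoter. With the 250 bases before the start alone, the numbers were 11 and 10. In the full length the core stood in a promoter of 9.76% of all 27025 genes and in 8.56% of all 32851 promoters of the same length. The windows below carry it in strongly raised genes of several groups, with the match in capitals, read on the strand of the gene. Those of Ifit1, Gbp2 and Cd274 hold its reverse complement. The windows of Ifi206 and Ifi213 share their match and the bases after it.
Ifit1, chr19:34640770-34640798, plus strand: aactgcaggcTTCAGTTTCactttccagt
Ifit1, chr19:34640795-34640823, plus strand: cagtctcagtTTCAGTTTCtcactgctga
Gbp2, chr3:142620595-142620623, plus strand: ctcttttagtTTCACTTTCactgtcttaa
Tgtp2, chr11:49064264-49064292, minus strand: tccaggaatcGAAACCGAAacctactctg
Isg15, chr4:156200872-156200900, minus strand: gtaggaaaagGAAACCGAAacagaaaata
Cxcl10, chr5:92349084-92349112, minus strand: tcacgctttgGAAAGTGAAacttacctca
Socs1, chr16:10785595-10785623, minus strand: gccggaaagaGAAACCGAAagcgggggtg
Cd274, chr19:29367352-29367380, plus strand: actgggtggcTTCGGTTTCacagacagcg
Ifi205, chr1:174031871-174031899, minus strand: ccaggccaggGAAATTGAAagctatgaac
Ifi206, chr1:173491340-173491368, minus strand: tgtctctgagGAAATCGAAagctatgaac
Ifi213, chr1:173599327-173599355, minus strand: cgtctctgagGAAATCGAAagctatgaac

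Of the promoters of genes called higher at 8-fold or more by fitted fold, 33.3% held GAAANNGAA. The share was 10.8% for all genes called higher, 5.62% for genes called lower and 7.04% for tested genes not called. GGANTTTCC was found in 4.84% at 8-fold or more, 2.51% of those called higher, 1.09% of those called lower, 1.15% of those not called and 1.25% of all promoters. In Cxcl10 both motifs were present, the second at chr5:92349029-92349057 on the minus strand.
Cxcl10: gaggggagagGGAAATTCCaagttcatgg
The AP-1 site TGANTCA stood in 16.7% of promoters at 8-fold or more, 6.95% of those higher, 5.54% of those lower, 4.7% of those not called and 7.81% of all promoters, and the cyclic AMP response element TGACGTCA in 0% at 8-fold or more, 3.27% of those not called and 1.79% of all. The E2F form TTTCCCGC was in 3.57% of promoters of genes called lower, 2.07% of those not called and 0.888% of those higher, and the form TTTGGCGC in 1.39%, 0.987% and 0.522%. CCAAT boxes were in 35.2% to 41.0% of promoters of the tested classes, the sterol element TCACNNCAC in 3.36% to 4.84%, and the GC box GGGCGG in 32.8% at 8-fold or more against 63.1% of those not called. Promoters were matched by symbol for 8905 genes tested and a match of letters is not evidence of binding. With the 250 bases before the start alone, GAAANNGAA stood in 9.14% of promoters of genes called higher and 32.3% at 8-fold or more.

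**Figure D5:**
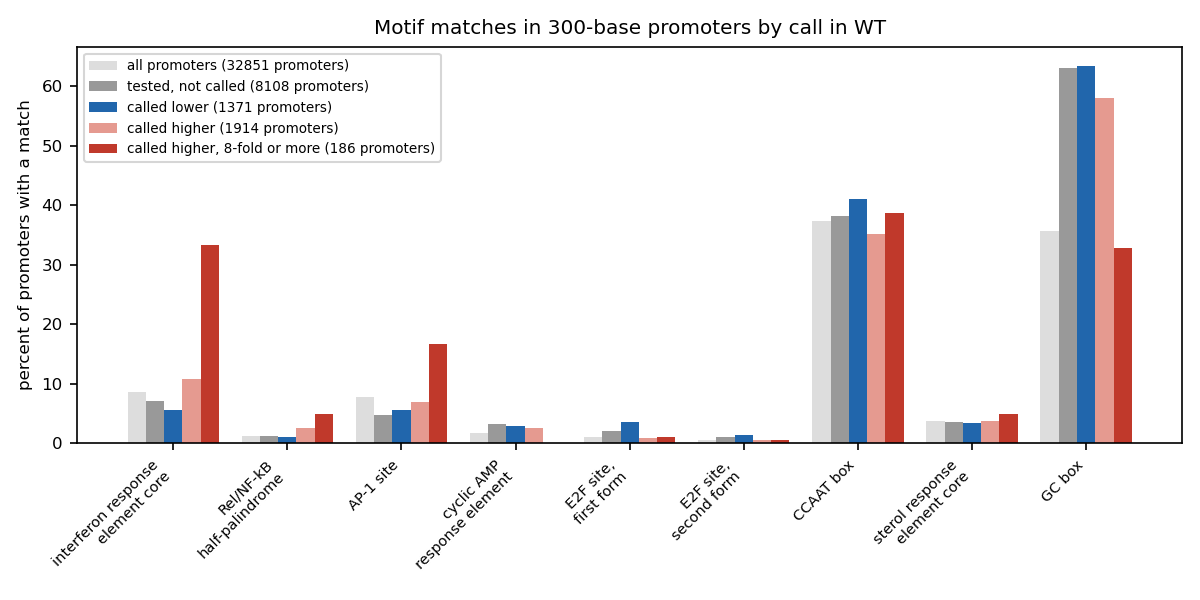
Percent of RefSeq promoters (300 bases, mouse GRCm38.p6) that hold each of 9 motifs, by the call of their gene in WT BMDMs after LPS, with all promoters beside them. GAAANNGAA stands at 33.3% for genes at 8-fold or more and at 8.56% for all promoters.

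MHC class I and its peptide supply rose as a group, with 16 of 19 called higher, 0 lower and a median of 1.55. Tap1, which carries peptides into the endoplasmic reticulum, stood at 40.1, 33.1 and 36.5 CPM at rest and 322, 177 and 454 CPM with LPS (log2 fold change 3.12 ± 0.59, adjusted p = 0.00099). Psmb10, a subunit of the immunoproteasome, rose from 44.4 ± 5.36 to 249 ± 71 CPM (log2 fold change 2.49 ± 0.50, adjusted p = 0.00163). H2-D1, Pdia3 and Canx were not called. MHC class II was called higher in 4 of 10 and lower in 0, at a median of 0.84, and in 2 without resting replicate 2 or LPS replicate 3. H2-Ab1 stood at 6.96, 4.82 and 13 CPM at rest and 28.3, 25.9 and 33.6 CPM with LPS (log2 fold change 1.85 ± 0.33, adjusted p = 0.000573). H2-DMa, which loads peptides, rose from 6.52 ± 1.91 to 12.8 ± 2.31 CPM (log2 fold change 0.99 ± 0.23, adjusted p = 0.00468). The class II transactivator Ciita was not called, at 0.92, 0.527 and 1.45 CPM at rest and 1.33, 1.16 and 1.17 CPM with LPS.

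Costimulatory, checkpoint and adhesion ligands were split, with 7 of 17 higher and 4 lower, at a median of 1.08, or 0.76 with floor genes at their bounds. Cd274 encodes the inhibitory ligand PD-L1 and stood at 36.9, 44.1 and 54.3 CPM at rest and 346, 196 and 639 CPM with LPS (log2 fold change 3.13 ± 0.53, adjusted p = 0.000393). Cd69, an early activation antigen, rose from 1.01 ± 0.659 to 45.3 ± 42.1 CPM (log2 fold change 5.57 ± 0.89, adjusted p = 0.000243). Cd40, Vcam1, Lgals9, Icam1 and Slamf7 were also higher. Cd83 stood at 84.7, 58.5 and 76.8 CPM at rest and 23.6, 12.2 and 15 CPM with LPS (log2 fold change −2.11 ± 0.54, adjusted p = 0.00822). Havcr2, which encodes the inhibitory receptor TIM-3, stood at 101, 80.7 and 76.4 CPM at rest and 18.5, 26.5 and 19.2 CPM with LPS (log2 fold change −2.01 ± 0.15, adjusted p = 1.15e-07). Cd80, a ligand of CD28, was also called lower (log2 fold change −0.73 ± 0.18, adjusted p = 0.00779), as was Vsir, while Cd86 was not called (log2 fold change 0.49 ± 0.28, adjusted p = 0.216).

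Enzymes of arginine, nitric oxide and itaconate were called higher in 6 of 13 and lower in 1, at a median of 0.65. Acod1, which makes itaconate from a product of the tricarboxylic acid cycle, was the most abundant and stood at 38.6, 26.2 and 65.9 CPM at rest and 2960.2, 2462 and 3381 CPM with LPS (log2 fold change 6.08 ± 0.67, adjusted p = 7.99e-06). Nos2, the inducible nitric oxide synthase, stood at 0.0657, 0.0753 and 0.387 CPM at rest and 8.03, 3.96 and 26.9 CPM with LPS (log2 fold change 6.29 ± 1.44, adjusted p = 0.00382). The arginine transporter Slc7a2 rose from 25.5 ± 2.49 to 241 ± 53.6 CPM (log2 fold change 3.24 ± 0.36, adjusted p = 7.99e-06). Ass1 and Gch1, which supply arginine and the cofactor of nitric oxide synthase, also rose, at 3.92 ± 0.77 and 2.01 ± 0.29. Arg1, which competes for arginine, was called higher at 2.76 ± 0.77, a call lost without resting replicate 1, resting replicate 2 or LPS replicate 3 (log2 fold change 2.36 to 3.54 over the 6 fits without 1 WT library). Odc1, of polyamine synthesis, was called lower at −0.86 ± 0.24, a call lost without resting replicate 1 or LPS replicate 3 (adjusted p 0.0544 to 0.0654).

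Of 8 tested genes of NAD, tryptophan, oxysterol and histamine metabolism, 5 were higher and 0 lower, at a median of 2.05, or 1.66 with floor genes at their bounds. Cd38 and Bst1, which consume NAD, and Nampt and Nadk, which make NAD and NADP, were called higher, with Nampt at 298, 227 and 250.3 CPM at rest and 811, 683 and 933 CPM with LPS (log2 fold change 1.65 ± 0.22, adjusted p = 5.35e-05). Hdc, which makes histamine, was at least 13-fold higher by its mean, with the LPS libraries at 2.37, 1.16 and 5.72 CPM. Its call was lost without resting replicate 1, resting replicate 2, resting replicate 3 or LPS replicate 3 (adjusted p 0.0523 to 0.0906). Ido1 and Kynu had too few counts to be tested.

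Prostaglandin and leukotriene genes went both ways, 5 of 17 higher and 6 lower, at a median of −0.06. Ptges, which makes prostaglandin E2, stood at 8.28, 8.13 and 9.96 CPM at rest and 396, 339 and 423 CPM with LPS (log2 fold change 5.46 ± 0.29, adjusted p = 8.83e-09). Ptger4, a receptor for it, rose from 17.7 ± 2.28 to 65.6 ± 20.9 CPM (log2 fold change 1.89 ± 0.27, adjusted p = 8.54e-05). Ptgs2, the inducible cyclooxygenase, stood at 0.46, 1.73 and 3.77 CPM at rest and 10.3, 4.5 and 4.62 CPM with LPS and was not called (adjusted p = 0.0603), although its groups did not overlap. Hpgd, which degrades prostaglandins, fell from 6.6 ± 1.98 to 0.587 ± 0.29 CPM (log2 fold change −3.48 ± 0.73, adjusted p = 0.00215). Ltc4s, which makes leukotriene C4, fell from 6.61 ± 0.677 to 2.57 ± 0.481 CPM (log2 fold change −1.36 ± 0.21, adjusted p = 0.000167). The other members called lower were Ptgs1, Alox5, Hpgds and Lta4h, which make prostaglandin H2, leukotrienes, prostaglandin D2 and leukotriene B4. The call of Alox5 was lost without resting replicate 1, resting replicate 2, resting replicate 3, LPS replicate 1 or LPS replicate 3 (log2 fold change −1.10 to −1.70 over the 6 fits without 1 WT library).

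NADPH oxidase and antioxidant genes were higher in 11 of 20 and lower in 0, at a median of 0.87. Sod2, the superoxide dismutase of mitochondria, stood at 189.5, 131 and 188 CPM at rest and 2218, 1990.4 and 2252 CPM with LPS (log2 fold change 3.67 ± 0.21, adjusted p = 8.91e-09). Slc7a11, the cystine transporter that feeds glutathione, stood at 23.4, 21.5 and 52.9 CPM at rest and 144, 313 and 205 CPM with LPS (log2 fold change 2.77 ± 0.35, adjusted p = 2.62e-05), and here LPS replicate 2 was the highest library. Hmox1, which breaks down haem, was called higher at 2.14 ± 0.20, and Cybb, Prdx1, Gclm, Txnrd1, Ncf4, Rac2, Keap1 and Srxn1 were higher as well.

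Glycolysis and hypoxia genes moved together, with 19 of 23 called higher and 1 lower, at a median of 0.83. Slc16a3, a lactate exporter, stood at 114, 98.8 and 134 CPM at rest and 508, 371 and 462 CPM with LPS (log2 fold change 1.95 ± 0.28, adjusted p = 0.000105). Bnip3, a hypoxia gene of mitophagy, rose from 50.4 ± 8.04 to 162 ± 23.1 CPM (log2 fold change 1.69 ± 0.25, adjusted p = 0.000134). The glucose transporter Slc2a1 and lactate dehydrogenase Ldha were called higher at 1.03 ± 0.15 and 1.13 ± 0.22, and Vegfa was the member called lower. The sums were 8827, 8085 and 9021 CPM at rest and 15098, 14179.7 and 15856 CPM with LPS, with no overlap and little spread. In contrast, 1 of 22 tricarboxylic acid cycle enzymes was called higher and 3 lower, at a median of 0.03. Cs (citrate synthase) was higher at 0.31 ± 0.11, Idh1 (the cytosolic isocitrate dehydrogenase) lower at −0.75 ± 0.21 and Idh2 lower at −0.47 ± 0.17. Cs was not called without any single WT library (adjusted p 0.0611 to 0.143), Idh1 not without resting replicate 1 or LPS replicate 3 (adjusted p 0.0513 to 0.07), and Idh2 not without resting replicate 1, resting replicate 2, resting replicate 3, LPS replicate 1 or LPS replicate 3 (adjusted p 0.0518 to 0.21). Mdh1, also a cytosolic enzyme, was called lower too, while Mdh2, Idh3a, Idh3b and Idh3g of the list were not called. Of 39 subunits of the respiratory chain and ATP synthase, 1 was higher and 0 lower, at a median of 0.14. This was Cox5a (0.33 ± 0.10), which was not called without resting replicate 2 or LPS replicate 3 (adjusted p 0.0539 to 0.0571).

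Amino acid transporters were called higher in 7 of 19 and lower in 1, at a median of 0.11. Slc7a2 and Slc7a11 had the largest rises, and Slc38a2, a glutamine and alanine carrier, fell from 171 ± 26.4 to 76.8 ± 4.88 CPM (log2 fold change −1.16 ± 0.20, adjusted p = 0.000472). In cholesterol synthesis 3 of 23 were higher (13%, against 16.3% of all genes tested) and 0 lower, at a median of 0.16. The number higher was 1 without resting replicate 2, resting replicate 3 or LPS replicate 1. Hsd17b7 was higher at 0.83 ± 0.17 and Pmvk at 0.56 ± 0.16, the latter not called without resting replicate 2, resting replicate 3 or LPS replicate 1 (adjusted p 0.055 to 0.0768). Among LXR targets and lipid genes, 3 of 19 were higher (15.8%, near the share of all genes) and 1 lower, at a median of 0.08. Abca1, the cholesterol exporter, rose from 206 ± 79.3 to 584 ± 141 CPM (log2 fold change 1.5 ± 0.26, adjusted p = 0.00045). Nr1h3, the receptor LXR-alpha, rose from 10.6 ± 2.9 to 34 ± 8.11 CPM (log2 fold change 1.69 ± 0.35, adjusted p = 0.00181). Abcg1, Apoe and Srebf1, further LXR targets, were not called. Mylip was called lower at −0.42 ± 0.14, a call lost without resting replicate 1, resting replicate 2, LPS replicate 1 or LPS replicate 3 (adjusted p 0.0678 to 0.175).

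Cell cycle genes had the largest shares called lower among the 36 lists. In DNA replication and S phase 21 of 34 were called lower and 0 higher, at a median of −0.78. Rrm2, a subunit of ribonucleotide reductase, stood at 44.7, 41.3 and 48.2 CPM at rest and 9.7, 13.4 and 13.6 CPM with LPS (log2 fold change −1.87 ± 0.31, adjusted p = 0.000384). Ccne2, a cyclin of the start of S phase, stood at 31.5, 26 and 30.5 CPM at rest and 7.54, 12.1 and 9.6 CPM with LPS (log2 fold change −1.58 ± 0.27, adjusted p = 0.000408), with no overlap in either. Among genes of mitosis and cytokinesis 18 of 28 were called lower and 0 higher, at a median of −0.97. Kif23, a kinesin of cytokinesis, stood at 31.9, 53.2 and 42 CPM at rest and 9.84, 20.4 and 14.1 CPM with LPS (log2 fold change −1.52 ± 0.33, adjusted p = 0.00265). Anln, a scaffold of the contractile ring, stood at 57.9, 95.3 and 92.2 CPM at rest and 18.3, 41.9 and 30 CPM with LPS (log2 fold change −1.44 ± 0.38, adjusted p = 0.00935). Mki67, a marker of cycling cells, stood at 205, 441 and 401 CPM at rest and 128, 230.1 and 150.4 CPM with LPS (log2 fold change −1.04 ± 0.32, adjusted p = 0.0243). Resting replicate 1 lay below LPS replicate 2, so that its groups overlapped, and the call was lost without resting replicate 2, resting replicate 3, LPS replicate 1 or LPS replicate 3 (adjusted p 0.0817 to 0.108). That of Anln was lost without LPS replicate 1 (adjusted p 0.0512). Summed mitosis CPM were 1616, 2253 and 2125 at rest and 626, 1289.8 and 936 with LPS. Resting replicate 1 was the lowest resting library and LPS replicate 1 the lowest LPS library. The count called lower in mitosis was 9 without resting replicate 2 or 3, 4 without LPS replicate 1 and 7 without LPS replicate 3, and in DNA replication it was 12 without LPS replicate 1 or 3. The E2F forms stood in 6 of the 28 DNA replication genes with a promoter each, and CCAAT in 18 of 23 mitosis genes, against 1.24% and 0.585% of all genes for the E2F forms and 41.1% for CCAAT.

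Inflammasome and cell death genes were called higher in 19 of 35 and lower in 3, at a median of 0.64. Mefv, which encodes pyrin, stood at 2.96, 2.03 and 7.93 CPM at rest and 59.3, 34.6 and 74.6 CPM with LPS (log2 fold change 3.75 ± 0.42, adjusted p = 8.75e-06). Fas, a death receptor, stood at 9.06, 6.93 and 6.58 CPM at rest and 35.3, 40.1 and 40.6 CPM with LPS (log2 fold change 2.35 ± 0.13, adjusted p = 8.91e-09). Casp1, Casp4, Gsdmd and Mlkl, which execute lytic cell death, were called higher, with 1.56 ± 0.28, 2.18 ± 0.27 and 1.40 ± 0.31 for the first 3. Nlrp3 was higher at 0.99 ± 0.27, a call lost without LPS replicate 1 (log2 fold change 0.88 to 1.08 over the 6 fits without 1 WT library). The members called lower were Nlrp1b (−0.81 ± 0.16) and the survival factors Bcl2l1 (−0.69 ± 0.12) and Bcl2 (−0.59 ± 0.18), the last not called without resting replicate 2, resting replicate 3, LPS replicate 1 or LPS replicate 3 (log2 fold change −0.48 to −0.76 over the 6 fits without 1 WT library).

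Early response transcription factors did not move together at 16 h, with 5 of 25 higher and 6 lower, at a median of 0.03. The shares were 20% higher and 24% lower, against 16.3% and 12.3% of all genes tested. Batf2 rose from 0.729 ± 0.477 to 8.06 ± 3.41 CPM (log2 fold change 3.54 ± 0.72, adjusted p = 0.00174) and Batf from 0.696 ± 0.0507 to 3.33 ± 1.16 CPM (log2 fold change 2.24 ± 0.40, adjusted p = 0.000579). Both are of the AP-1 superfamily. Besides Fosb, the orphan nuclear receptor gene Nr4a1 fell from 8.24 ± 2.5 to 1.8 ± 0.579 CPM (log2 fold change −2.18 ± 0.47, adjusted p = 0.00265). Fos, Klf4, Egr1 and Egr3 were also called lower. The number called higher was 3 without resting replicate 2, LPS replicate 1 or LPS replicate 3. Fos was lower at −0.71 ± 0.24, not called without resting replicate 2, resting replicate 3, LPS replicate 1, LPS replicate 2 or LPS replicate 3 (log2 fold change −0.58 to −0.82 over the 6 fits without 1 WT library), and Egr1 at −2.10 ± 0.61, not called without resting replicate 3, LPS replicate 2 or LPS replicate 3 (log2 fold change −1.81 to −2.72 over the 6 fits without 1 WT library).

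Lineage factors and growth factor receptors were called higher in 10 of 24 and lower in 6, at a median of 0.28. Csf2rb, the shared receptor chain of GM-CSF, interleukin-3 and interleukin-5, rose from 54.1 ± 18.1 to 182 ± 7.64 CPM (log2 fold change 1.75 ± 0.26, adjusted p = 0.000138). Csf3r, the receptor of G-CSF, rose from 25.1 ± 3.46 to 74.3 ± 26.5 CPM (log2 fold change 1.57 ± 0.29, adjusted p = 0.000856). Csf1r, the receptor of M-CSF, stood at 1443, 1848 and 1941 CPM at rest and 3042, 2538 and 2514 CPM with LPS (log2 fold change 0.63 ± 0.18, adjusted p = 0.0166), and its call was lost without resting replicate 1 or LPS replicate 1 (adjusted p 0.0758 to 0.0762). Pparg, a nuclear receptor of lipid metabolism, stood at 28.1, 36.1 and 31.3 CPM at rest and 6.07, 6.28 and 6.96 CPM with LPS (log2 fold change −2.30 ± 0.25, adjusted p = 6.55e-06). Bhlhe40, a repressor, fell from 31.7 ± 8.35 to 8.59 ± 3.79 CPM (log2 fold change −1.88 ± 0.28, adjusted p = 0.000152). Of the C/EBP factors, Cebpb was called higher at 1.29 ± 0.16 and Cebpa lower at −1.14 ± 0.16. Adgre1, the macrophage antigen F4/80, stood at 1868, 1247 and 1492 CPM at rest and 3606, 3235 and 4065 CPM with LPS (log2 fold change 1.24 ± 0.18, adjusted p = 0.000122).

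Scavenger, phagocytic and Fc receptors and integrins were divided, 10 of 31 higher and 6 lower, at a median of 0.31, or 0.10 with floor genes at their bounds. Marco, a scavenger receptor for bacteria, stood at 25.9, 11.4 and 37.8 CPM at rest and 674, 572 and 1212 CPM with LPS (log2 fold change 5.04 ± 0.57, adjusted p = 1.07e-05). Olr1, a receptor of oxidised LDL, rose from 1.62 ± 0.848 to 10.8 ± 1.67 CPM (log2 fold change 2.78 ± 0.35, adjusted p = 3.05e-05), and the high-affinity IgG receptor Fcgr1 was higher at 2.73 ± 0.51. Itgb3 and Itgb5, which pair with the integrin alpha-v chain, fell from 19.4 ± 5.43 to 3.21 ± 1.26 CPM (log2 fold change −2.59 ± 0.32, adjusted p = 2.39e-05) and from 237 ± 17.4 to 67.7 ± 9.38 CPM (log2 fold change −1.81 ± 0.23, adjusted p = 2.96e-05). Itgav itself was called lower. Trem2 was called lower at −0.54 ± 0.17, not without resting replicate 1, LPS replicate 1, LPS replicate 2 or LPS replicate 3 (log2 fold change −0.38 to −0.64 over the 6 fits without 1 WT library), and Mertk and Cd36 were not called.

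Receptors and ectoenzymes of nucleotides, adenosine and metabolites were higher in 8 of 20 and lower in 5, at a median of 0.26. Gpr84, a receptor of medium-chain fatty acids, stood at 5.65, 8.58 and 12.4 CPM at rest and 135, 113 and 103 CPM with LPS (log2 fold change 3.74 ± 0.32, adjusted p = 6.45e-07). Entpd1, or CD39, which breaks down extracellular ATP, stood at 162, 158 and 159 CPM at rest and 34.9, 30.4 and 34.9 CPM with LPS (log2 fold change −2.26 ± 0.26, adjusted p = 1.18e-05). Nt5e, or CD73, which makes adenosine, was called lower at −1.92 ± 0.53, a call lost without resting replicate 3 or LPS replicate 3 (log2 fold change −1.48 to −2.30 over the 6 fits without 1 WT library). The adenosine receptors Adora2a, Adora2b and Adora3 were called higher, while these enzymes, which form their ligand, were called lower. The ATP receptor P2rx7 was not called (log2 fold change 0.02 ± 0.11, adjusted p = 0.932).

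Acute-phase proteins and alarmins were called higher in 7 of 13 and lower in 0, at a median of 1.14. Lcn2, which binds bacterial iron carriers, stood at 0.263, 0.301 and 0.483 CPM at rest and 29, 30 and 44.6 CPM with LPS (log2 fold change 6.64 ± 0.68, adjusted p = 3.53e-06). Hp, haptoglobin, stood at 7.55, 3.61 and 11.6 CPM at rest and 586, 479 and 815 CPM with LPS (log2 fold change 6.38 ± 0.78, adjusted p = 2.1e-05). S100a8 and S100a9 were not called. Iron genes were higher in 7 of 13 and lower in 1, at a median of 0.97. Cp, ceruloplasmin, rose from 0.939 ± 0.302 to 73.3 ± 33 CPM (log2 fold change 6.32 ± 0.47, adjusted p = 1.39e-07). Slc40a1, the iron exporter ferroportin, fell from 23.1 ± 6.01 to 3.47 ± 1.14 CPM (log2 fold change −2.73 ± 0.52, adjusted p = 0.00105). In the complement list 5 of 14 were higher and 0 lower, at a median of 0.34, and 3 were without resting replicate 1, resting replicate 2, LPS replicate 1 or LPS replicate 3. C3, the central component, stood at 21.5, 16.3 and 31.2 CPM at rest and 189, 142 and 246 CPM with LPS (log2 fold change 3.07 ± 0.50, adjusted p = 0.000285), while the C1q chains C1qa, C1qb and C1qc were not called.

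Matrix and coagulation genes were higher in 7 of 22 and lower in 5, at a median of 0.42. Mmp14, a membrane metalloproteinase, stood at 7.69, 5.72 and 21.8 CPM at rest and 352, 279 and 414 CPM with LPS (log2 fold change 4.91 ± 0.38, adjusted p = 2.08e-07). Timp1, an inhibitor of such enzymes, stood at 0.854, 0.602 and 1.16 CPM at rest and 32.7, 9.55 and 43 CPM with LPS (log2 fold change 5.04 ± 0.61, adjusted p = 1.78e-05). Plau fell as given above, and Thbd, thrombomodulin, fell from 24.4 ± 3.49 to 11.9 ± 0.444 CPM (log2 fold change −1.04 ± 0.19, adjusted p = 0.00072). The count called lower was 3 without resting replicate 3, LPS replicate 1 or LPS replicate 2. Lysosomal hydrolases and V-ATPase subunits were higher in 4 of 29 and lower in 7, at a median of −0.08. The shares were 13.8% higher and 24.1% lower, against 16.3% and 12.3% of all genes tested. The number lower was 3 or 4 without any single WT library and 12 with total counts. Ctsc, the dipeptidase that activates granule proteases, rose from 232 ± 25.5 to 1079.5 ± 351 CPM (log2 fold change 2.22 ± 0.23, adjusted p = 3.63e-06). Ctsh was higher at 0.80 ± 0.17. Atp6v0d2, a V-ATPase subunit, stood at 111, 137 and 101 CPM at rest and 28.1, 29.8 and 25 CPM with LPS (log2 fold change −2.08 ± 0.40, adjusted p = 0.00111). Npc1, which exports cholesterol from the lysosome, was called lower at −0.66 ± 0.20, not without resting replicate 2, LPS replicate 1 or LPS replicate 3 (adjusted p 0.0584 to 0.115).

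Chaperones of the heat shock and unfolded protein responses were called higher in 4 of 22 and lower in 1, at a median of 0.17. The share higher, 18.2%, was near the 16.3% of all genes tested. The number higher was 2 without resting replicate 2 or LPS replicate 3. Hspa8, a constitutive chaperone, rose from 851 ± 61.6 to 1341 ± 124 CPM (log2 fold change 0.66 ± 0.13, adjusted p = 0.00137), and Hspa5 and Calr of the endoplasmic reticulum were called higher. Hspa1b was higher at 2.33 ± 0.82 and Edem1 lower at −0.33 ± 0.11, calls that were lost without resting replicate 1, resting replicate 2, resting replicate 3, LPS replicate 1 or LPS replicate 3 (adjusted p 0.0749 to 0.127) and without resting replicate 2, resting replicate 3, LPS replicate 1, LPS replicate 2 or LPS replicate 3 (adjusted p 0.0578 to 0.139). Reads of Hspa1b that also match its near copy Hspa1a may be lost or misplaced.

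The response of the other genotypes was set beside that of WT. These contrasts share no library with it, but all come from 1 fit with a shared estimate of the spread of each gene. 3F cells had 1951 calls of a rise (17.2%) and 1595 of a fall (14%). KO cells had 1627 (14.3%) and 1432 (12.6%). Of the 1847 genes higher in WT, 1469 (79.5%) were also higher in 3F and 1255 (67.9%) in KO, and of the 1393 lower in WT, 995 (71.4%) and 970 (69.6%) were lower. None was called in the opposite direction in either. The shared genes were 75.3% of those higher and 62.4% of those lower in 3F, and 77.1% and 67.7% in KO. 1 resting KO library, replicate 3, stood apart, with a summed CPM of 20146 over the interferon-stimulated list against 2050 and 2493 in the other resting KO libraries. Without it 1582 of the genes higher in WT (85.7%) were higher in KO and 1029 of those lower (73.9%). In the interferon-stimulated list 7 of 35 were called higher in KO with this library and 33 without it, against 33 in WT, and among the GTPases 3 and 15 against 13 in WT. Calls of a fall in the mitosis list were fewer in the other genotypes. Of its 28 members, 18 were called lower in WT, 7 in 3F and 1 in KO, with or without this library. The WT count depended on single libraries, as given above. Median log2 fold changes of the list were −0.97 in WT, −0.78 in 3F and −0.34 in KO. Its sums in resting KO libraries were 626, 629 and 460 CPM, against 626 to 1290 CPM in WT with LPS. In DNA replication 21 of 34 were called lower in WT, 24 in 3F and 22 in KO, with or without resting KO replicate 3.

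Tested directly, the WT response differed from that of KO in 1 gene, 0.00881% of those tested, and from that of 3F in 0 genes, 0%, by the edgeR fit. At an unadjusted p under 0.05 the numbers were 560 and 203. Neither is above a share of 0.05 of the 11357 genes tested, the share that genes without any difference would give. These counts do not show that the responses are equal, and that for KO includes resting KO replicate 3, which stood apart. Without that library the edgeR fit called 4 genes for KO, and the number at an unadjusted p was not counted. DESeq2 called 15 genes for KO and 0 for 3F, and limma-voom with quality weights 57 and 0. The gene called was Clmp, an adhesion molecule of epithelial junctions, at chr9:40686000-40785300 of GRCm38. In WT it stood at 2.69, 1.96 and 3.19 CPM at rest and 37.8, 40.9 and 38 CPM with LPS (log2 fold change 3.90 ± 0.21, adjusted p = 8.83e-09). In KO the resting libraries held 17.7, 11.2 and 10.3 CPM and the LPS libraries 51.9, 58.9 and 46.1 CPM, a log2 fold change of 1.98. The difference of the responses, KO minus WT, was −1.92 ± 0.28 (adjusted p = 0.0369 by edgeR), and it was called in 0 of the 6 fits that left out 1 WT library, where it ran from −2.07 to −1.75 (adjusted p 0.052 to 0.226). In 3F the resting libraries held 2.65, 2.43 and 1.64 CPM and the LPS libraries 48.9, 44.4 and 43.0 CPM. Resting KO cells were above the resting cells of WT and 3F, and the libraries did not overlap.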

How the data were processed

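RNA of the BMDM cultures was extracted with Trizol, depleted of rRNA and made into directional libraries, 3 per group. The authors deposited raw counts, whole numbers of reads per protein-coding gene and library, with an exon length in bases that was used here for CPM per kb. Per the submitters' processing notes and the study's methods they used cutadapt 1.8.3, HISAT2 2.1.0 on mm10 and featureCounts 1.5.3 with Gencode M15. Gene positions come from GENCODE M21 on the same build, where 21679 IDs were found and 55 were not.

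Counts were analysed with edgeR 4.0.16 in R 4.3.3. Genes were kept by filterByExpr with the 6 groups (11357 of 21734), libraries were scaled by TMM (0.890 to 1.15 in WT), and the 18 libraries entered 1 quasi-likelihood fit with a coefficient per group and no covariate (12 residual degrees of freedom, common biological coefficient of variation 0.184). Tests were two-sided, and Benjamini-Hochberg adjustment covered the 11357 genes. The floor is 3 counts per library; reads carry no molecular identifiers, so bounds and floors reflect the error of counting alone. SE is the log2 fold change divided by the square root of F. The procedure was tested on simulated data. Replicates were compared by a chi-square test and none was a copy of another. No column of values was left unmatched to a sample.

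Genes were named by rule: 20 fixed genes; from each of the 36 lists, the 2 called higher and the 2 called lower with the largest log2 fold change, and over all genes the 12 higher and 12 lower by fold change and the 6 higher and 6 lower by CPM per kb, all limited to genes whose average log2 CPM reached 1 and whose WT groups did not overlap; and genes called in an interaction. Some genes that the rule would name are not reported here. Any other gene named was chosen after its values were seen, and so were the promoter windows printed. The 36 lists, the 9 cell type lists and the members were chosen with earlier results of these data known, and lists are described by counts and medians without a set test. Reads of near copies (Ifi205, Ifi206 and Ifi213, the Gbp genes, Ifit3 and Ifit3b, Hspa1a and Hspa1b) may be lost or misplaced. The study's methods set a minimum mapping quality for counted reads. Motifs were searched on both strands of 32851 RefSeq promoters of GRCm38.p6. Alternatives were RLE, upper-quartile and total-count scaling, no filter on low counts, DESeq2 1.42.0, limma-voom with quality weights (limma 3.58.1), the WT libraries alone, a replicate block, a test against a 1.5-fold change and leaving out libraries. The proteome and other measurements of the study were not used here.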

Additional observations from a re-analysis of the deposited data

Results flagged for a closer look

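The LPS response of Clmp was called as different between KO and WT by a test of the difference itself: its log2 fold change was lower in KO by −1.92 ± 0.28 (KO minus WT, adjusted p = 0.0369 by edgeR's quasi-likelihood test with Benjamini-Hochberg adjustment), from 3.90 in WT and 1.98 in KO. All 3 resting KO libraries were above all 3 resting WT libraries. It was the single gene called in that comparison. The call was lost in each of the 6 fits without 1 WT library (adjusted p 0.052 to 0.226) and with a replicate block (−1.89, adjusted p = 0.195). Dixon's test for an outlying library was not run, since all groups hold 3 libraries.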

How the results depend on the processing

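Of 3240 genes called in the WT response, 57.0% were higher, and this share moved with the scaling. With the WT libraries alone 1773 were higher and 1778 lower. With total counts 1094 were higher and 3002 lower, with upper-quartile scaling 1362 and 2105, with limma-voom and quality weights 2878 and 2340 (5218 in all), and in a test against a 1.5-fold change 680 and 335 (1015 in all). RLE scaling, no filter, DESeq2 and the WT libraries alone left all 3 counts within 1.5 times their values, and 1926 were lower without resting 3F replicate 3. Leaving out 1 WT library gave 2213 to 2932 calls, 1329 to 1716 higher and 884 to 1222 lower. With limma-voom 6073 genes were called in KO and 5478 in 3F, against 3059 and 3546. The KO against WT difference was called in 1 gene, in 2 with upper-quartile scaling, total counts or no filter, in 15 with DESeq2, 57 with limma-voom, 4 without resting KO replicate 3, 7 without resting 3F replicate 3, and in 0 (lowest) to 0 (highest) without 1 WT library. The 3F against WT difference was called in 0 genes under every alternative run.

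The labels do not say that a replicate number marks 1 mouse. The deviations of same-numbered resting and LPS libraries correlated at −0.00023, 0.27 and 0.27, and those of libraries with different numbers at −0.27 to 0.014. The numbers were treated as names in the main fit. With 3 mice of each genotype, resting and LPS libraries may come from the same mice, and the main fit takes them as independent. A replicate block gave 1676 genes higher and 1364 lower (3040 in all), called 28 mitosis genes lower in place of 18, and left 0 genes in the KO against WT difference, with Clmp at −1.89 (adjusted p = 0.195). Of the 134 named genes called, 112 were called the same way in every alternative but the 1.5-fold test. Of 2517 values of named genes under alternatives, 2378 kept direction and side of the threshold, 131 lost and 8 gained a call. Of 1296 counts over lists, 211 moved by over 1.5 times; the cause was not tested. Genes of a few counts at rest, such as Ifnb1 and Il6, are limited by depth.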
